A study of Mus musculus with 4 samples.

Results

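The 38 genes described here act in protein folding in the endoplasmic reticulum and in the unfolded protein response. Each was read on a mouse array through probe sets annotated with that gene symbol alone. Where a gene had several such probe sets, the one with the highest mean over the 4 arrays stood for it. All 38 were on the array, of 18193 genes with such a probe set, and all 38 were among the 13331 genes left for testing after the dimmest 40% of probe sets were left out. The tumours grew in nude mice that received Eph4 cells, a mouse line of mammary epithelium. The 2 EN-TAM67 tumours came from Eph4 cells with the ETV6-NTRK3 fusion oncogene together with TAM67, which is a c-Jun mutant that acts as a dominant negative, and the 2 EN tumours came from Eph4 cells with ETV6-NTRK3 alone, so that every tumour carried the fusion. Both genes were expressed in a transplanted cell line, and the host supplied the other cells of each tumour. Nude mice lack a normal thymus and therefore most T cells. The comparison bears on how far tumour formation by ETV6-NTRK3 runs through AP-1, the transcription factor complex that contains c-Jun.

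Secreted and membrane proteins enter the endoplasmic reticulum through the Sec61 channel, fold there with the help of chaperones, lectins and disulfide isomerases, and are sent for degradation when folding fails. Unfolded protein is sensed by the membrane proteins IRE1 (gene Ern1), PERK (gene Eif2ak3) and ATF6. IRE1 and ATF6 act mainly through XBP1 and cleaved ATF6 on chaperone and degradation genes, whereas PERK slows translation and favours ATF4, which acts on amino acid metabolism genes and on Ddit3, the gene of CHOP. Secretory epithelium, including that of the mammary gland, depends on these genes, as do collagen-producing fibroblasts and plasma cells.

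No gene of the list passed the test, and 20 of its 38 members lay inside the middle 50% of all genes tested. Of the 38 members, 0 had a limma adjusted p under 0.05, where 0.555% of all genes tested did. At an unadjusted p under 0.05 there were 2 members, Calr and Herpud1, where 9.8% of all genes were past that value. The members' differences, all of them EN-TAM67 minus EN in units of log2(intensity + 16), ran from -0.69 to 0.37 with a median of -0.09, against a median of 0.02 over all genes tested. Leaving out EN tumour 2 brought the members' median to -0.03 and that of all genes to 0.04. Centring each array on its median brought these medians to -0.19 and -0.08. The 95% interval included 0 for 36 members and lay between -1 and 1 for 35. The intervals are not adjusted for the number of genes and rest on the spread of 2 arrays in each group. With the arrays scaled as deposited, these 35 did not reach a change of 2-fold in either direction on that scale. The intervals of the other 3, Atf5, Ppp1r15a and Derl3, reached beyond it. The standard error of a member's difference was 0.18 to 0.37.

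The direction of the small differences was uneven. Of the 38 members, 22 were negative (57.9%), against 47.8% of all genes tested. In 15 members both EN-TAM67 tumours read below both EN tumours, where this held for 20.0% of all genes, and in 3 members (Canx, Ern1 and Derl3) both read above, where this held for 20.2% of all genes. The members thus had a share of 39.5% lower and 7.89% higher. With each array centred on its median, 17 members were lower and 0 higher, against 29.1% and 12.1% of all genes. With a gene's probe sets averaged, 14 were lower and 5 higher, against 19.3% and 21.9% of all genes. With quantile normalization 14 were lower and 3 higher, against 22.9% and 18.3%. For 27 members the difference between the groups was smaller than the larger gap between tumours of 1 group, which was also so for 73.3% of all genes tested. Tumours were compared in bulk, where fewer cells of a type and less RNA per cell cannot be told apart.

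**Figure D1:**
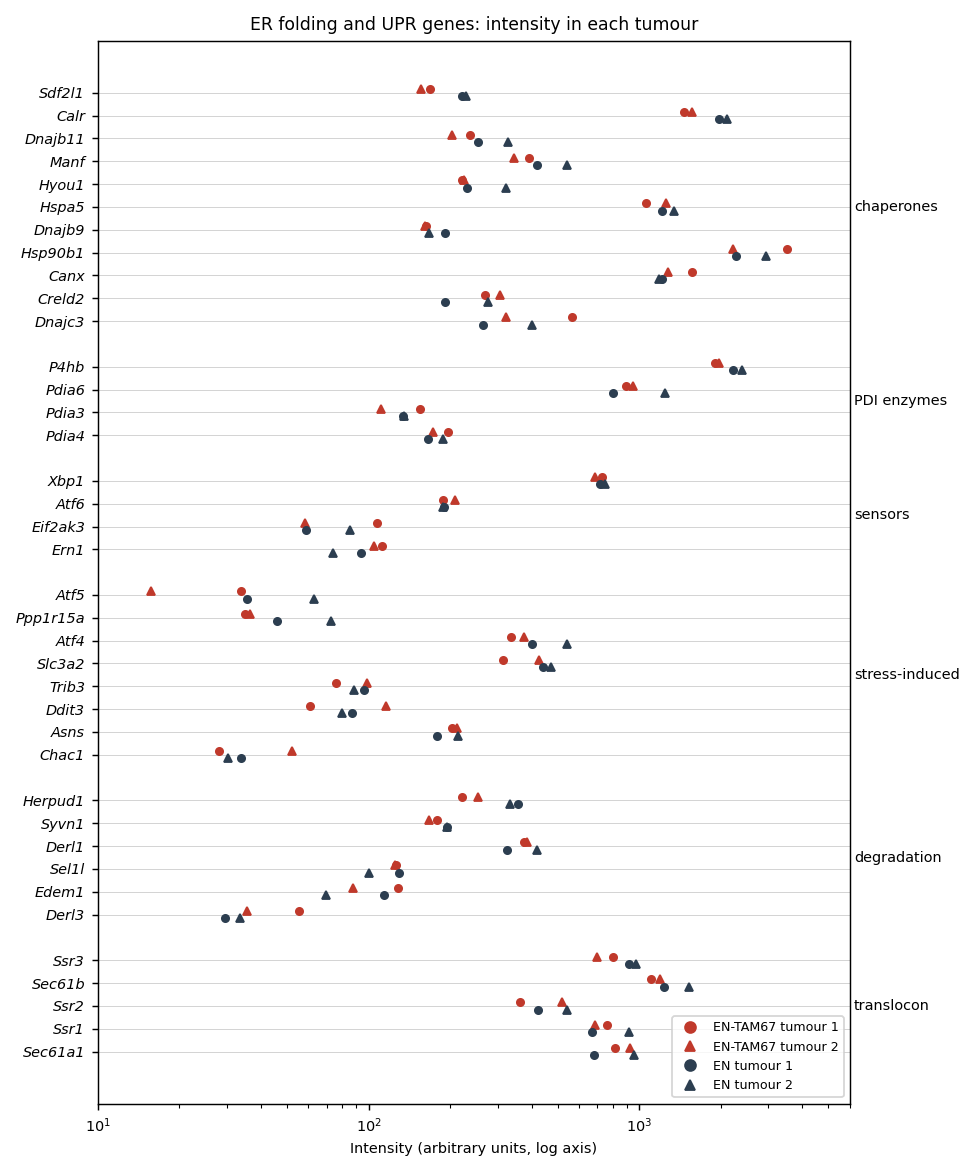
Intensity (arbitrary units, log axis) of the 38 genes in each tumour, grouped by role and ordered within a group by their difference. Red marks are EN-TAM67 tumours and dark marks EN tumours, circles tumour 1 and triangles tumour 2. For Calr the EN-TAM67 tumours read 1465 and 1561, apart from the EN tumours at 1977 and 2115, while for Hsp90b1 the marks of the groups are mixed.

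Several measures differed between the groups beside every value in the text. Array medians were 38.1 and 40.8 in EN-TAM67 and 35.6 and 35.9 in EN tumours. Over all genes, arrays correlated at 0.952 within each group and at 0.932 to 0.946 between groups (genes are not independent replicates). The ratio of 3' to 5' signal of Gapdh, a sign of RNA integrity, was 1.17 and 1.11 in EN-TAM67 and 0.938 and 1.04 in EN tumours, and that of beta-actin was 1.31 and 1.34, against 1.11 and 1.19. The mean log2 signal of 18S ribosomal RNA was 6.757 and 7.427 in EN-TAM67 tumours and 5.428 and 6.404 in EN tumours. Summed intensities of 9 macrophage markers were 11960 and 9588 in EN-TAM67 tumours, against 17910 and 15150 in EN tumours, and those of 9 fibroblast markers 17220 and 15000, against 19190 and 26100. Differences were negative in 8 of the macrophage and 7 of the fibroblast markers, while the fibroblast markers Dcn (0.27) and Dpt (0.25) were positive. Adipocyte markers (8 on the array) summed to 1424 and 6097 in EN-TAM67 tumours and to 574.4 and 376.0 in EN tumours. Of these, 4 passed. They were Car3 at 3.36 (limma adjusted p = 0.000474), Fabp4 at 2.47 (adjusted p = 0.0217), Adipoq at 2.33 (adjusted p = 0.0485) and Retn at 1.59 (adjusted p = 0.0481). The 9 mammary epithelial markers, the dim Krt19 included, summed to 3146 and 3368 in EN-TAM67 tumours and to 3744 and 3972 in EN tumours. The keratin genes Krt8 (-0.40) and Krt18 (-0.36) carry that sum, while the list had 5 negative and 4 positive differences, from -0.63 for Krt5 to 0.67 for Krt14, and a median of -0.10. Skeletal muscle markers (7 on the array, 4 of them dim) summed to 267.9 and 326.6 in EN-TAM67 tumours and to 150.0 and 200.6 in EN tumours. Among these muscle markers Myh1 was the one that passed, at 1.39 (limma adjusted p = 0.00923). No marker was at exactly 0 on any array. The part of these measures in the results was not tested.

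The chaperones and their partners were the largest of the 6 role groups, with 11 members. Of these, 0 passed, 7 had a negative and 4 a positive difference, and the median was -0.14. Calr encodes calreticulin, a calcium-binding lectin that retains unfolded glycoproteins. Its intensity was 1465 and 1561 in EN-TAM67 tumours and 1977 and 2115 in EN tumours. The groups did not overlap, and the difference was -0.43 ± 0.18 (SE, n = 2 tumours in each group, limma adjusted p = 0.441). The 3 Calr probe sets gave -0.46 to -0.43, and the value was -0.48 to -0.38 when any 1 tumour was left out. Canx encodes calnexin, the membrane-bound relative of calreticulin in the same folding cycle. It read 1570 and 1280 units in EN-TAM67 tumours and 1211 and 1186 in EN tumours, so that the groups lay apart in the other direction (0.24 ± 0.19, adjusted p = 0.735). Dimmer Canx probe sets were at -0.03 and 0.13.

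Sdf2l1, whose product works in a complex with BiP and ERdj3, read 169.4 and 155.7 units in EN-TAM67 tumours and 221.6 and 229.4 in EN tumours. Its difference was -0.44 ± 0.21 (SE, adjusted p = 0.522), with both EN-TAM67 tumours the lower ones. Dnajb11, which encodes ERdj3, the J-domain partner that hands substrates to BiP, read 237.8 and 203.4 units in EN-TAM67 tumours and 254.8 and 326.5 in EN tumours (-0.37 ± 0.22, adjusted p = 0.628). Manf, a small stress-induced protein of the secretory pathway, read 391.6 and 344.9 units in EN-TAM67 tumours, against 420.2 and 542.6 in EN tumours. In both genes EN tumour 2 was the highest of the 4 tumours. Hyou1, a nucleotide exchange factor for BiP, also read highest in EN tumour 2, with 221.0 and 225.1 units in EN-TAM67 tumours and 231.9 and 322.6 in EN tumours, and a difference of -0.28 ± 0.23 (SE). Dnajb9, which encodes ERdj4, a repressor of IRE1, was at -0.13 with groups that did not overlap.

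The central chaperones showed no separation of the groups. Hspa5 encodes BiP, the HSP70 of the endoplasmic reticulum and the usual marker of its stress. It read 1061 and 1253 units in EN-TAM67 tumours and 1215 and 1341 in EN tumours, with groups that overlapped and an interval of -0.56 to 0.27 around a difference of -0.14. Its other 2 probe sets gave 0.22 and 0.07, so that the sign of the BiP difference depended on the probe set. Hsp90b1 encodes GRP94, the HSP90 of the compartment, and read 3521 and 2225 units in EN-TAM67 tumours and 2276 and 2937 in EN tumours. EN-TAM67 tumour 1 was the highest and tumour 2 of the same group the lowest, and the difference of 0.11 was -0.22 without EN-TAM67 tumour 1. Dnajc3, whose product P58IPK is a BiP partner and an inhibitor of PERK, read 563.4 and 322.5 units in EN-TAM67 tumours and 265.9 and 401.8 in EN tumours. Its 5 probe sets spread from -0.32 to 0.65, with 3 positive. Creld2, a stress-induced folding factor, read 269.8 and 306.8 units in EN-TAM67 tumours and 192.4 and 276.3 in EN tumours (0.30 ± 0.23, adjusted p = 0.714).

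Many chaperone genes share a promoter element through which ATF6 and XBP1 act, the ER stress response element. Promoter windows of 300 bases, from 250 before to 50 after a RefSeq start (GRCm38.p6), were found for 32 of the 38 members. The element, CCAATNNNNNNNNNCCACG on either strand, stood in the windows of 9 of these 32 members (28.1%) and of 37 of 27025 genes with a window (0.137%). Its 10 matches, centred 35 to 203 bases before the start, are printed as the sites of this element in the list. Capitals mark the fixed bases, each sequence is written 5′ to 3′ in the direction of the element, and coordinates cover the element without its flanks of 6 bases.
Hspa5, chr2:34772025-34772043, gene strand: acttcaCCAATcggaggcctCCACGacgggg
Hsp90b1, chr10:86705638-86705656, gene strand: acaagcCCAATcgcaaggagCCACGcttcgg
Hsp90b1, chr10:86705533-86705551, opposite strand: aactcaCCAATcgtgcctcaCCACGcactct
Dnajc3, chr14:118937827-118937845, gene strand: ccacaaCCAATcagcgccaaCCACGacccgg
Creld2, chr15:88819520-88819538, opposite strand: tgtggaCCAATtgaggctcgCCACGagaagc
Calr, chr8:84847075-84847093, opposite strand: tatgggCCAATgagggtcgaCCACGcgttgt
Canx, chr11:50325800-50325818, gene strand: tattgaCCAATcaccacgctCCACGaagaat
Pdia6, chr12:17266491-17266509, gene strand: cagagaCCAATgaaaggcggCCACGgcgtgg
Syvn1, chr19:6046532-6046550, gene strand: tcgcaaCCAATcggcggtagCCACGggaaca
Derl3, chr10:75893242-75893260, opposite strand: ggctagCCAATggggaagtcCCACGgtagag

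A second form of the element, ATTGGNCCACG, stood in the windows of 2 members (6.25%) and of 0.0444% of all genes with a window. Capitals again mark the fixed bases.
Dnajb11, chr16:22857852-22857862, gene strand: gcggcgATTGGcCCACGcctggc
Herpud1, chr8:94386377-94386387, gene strand: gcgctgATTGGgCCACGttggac
The members with the first element did not share a direction. Their differences ran from -0.43 for Calr to 0.37 for Dnajc3, with a median of 0.11 and 4 of 9 negative. The 11 members with either form had a median of -0.12, and the 21 members with a window and neither form one of -0.08. Another 7 tested genes held the first form, among them Ero1b, an oxidase of the folding pathway, and Alg12, a mannosyltransferase of N-glycan assembly. Of these 7, 0 passed, and they ran from -0.23 to 0.70 with 2 negative. The UPR element TGACGTGG was in the window of 0 members and of 0.714% of all genes. No match of one motif in a member overlapped a match of another. A match describes letters only, and the members without a match are not thereby outside the reach of a factor.

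The windows of Calr and Herpud1 are given whole, as those of the 2 members with an unadjusted p under 0.05. They are written 5′ to 3′ on the gene's strand, with the fixed bases of the element in capitals. In Calr the element runs against the gene and is read as its reverse complement.
Calr, chr8:84846882-84847181, minus strand: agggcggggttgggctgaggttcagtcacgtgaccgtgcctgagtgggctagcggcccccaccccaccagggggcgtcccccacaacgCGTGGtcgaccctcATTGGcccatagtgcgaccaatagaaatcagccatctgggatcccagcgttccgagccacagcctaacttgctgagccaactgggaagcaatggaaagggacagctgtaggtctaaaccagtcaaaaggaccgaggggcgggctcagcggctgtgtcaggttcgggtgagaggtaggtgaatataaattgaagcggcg
Herpud1, chr8:94386179-94386478, plus strand: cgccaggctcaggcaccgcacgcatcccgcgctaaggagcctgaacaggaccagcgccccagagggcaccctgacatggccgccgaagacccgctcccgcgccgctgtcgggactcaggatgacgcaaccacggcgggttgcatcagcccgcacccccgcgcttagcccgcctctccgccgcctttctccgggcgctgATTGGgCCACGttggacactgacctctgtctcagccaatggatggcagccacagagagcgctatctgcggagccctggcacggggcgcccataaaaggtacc

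The 4 protein disulfide isomerases, the enzymes that form and rearrange disulfide bonds, had a median difference of -0.08, and 0 passed. P4hb encodes the founding member of the family, which is also a subunit of the prolyl 4-hydroxylase that modifies collagen. It read 1901 and 1965 units in EN-TAM67 tumours and 2214 and 2400 in EN tumours, with both EN-TAM67 tumours lower (-0.25 ± 0.18, adjusted p = 0.689). Over the same tumours the collagen gene Col1a1 read 2434 and 2376 units in EN-TAM67 and 3202 and 5010 in EN tumours, a movement whose part in the P4hb value was not tested. Pdia6 read 891.6 and 947.7 units in EN-TAM67 tumours, between the EN tumours at 799.2 and 1245. The same enzyme class gave 197.0 and 173.0 units for Pdia4 in EN-TAM67 tumours and 166.2 and 187.9 in EN tumours, with a difference of 0.06. Pdia3, the partner of calreticulin and calnexin, was at -0.04 with an interval of -0.50 to 0.43, and in it, too, the groups overlapped.

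**Figure D2:**
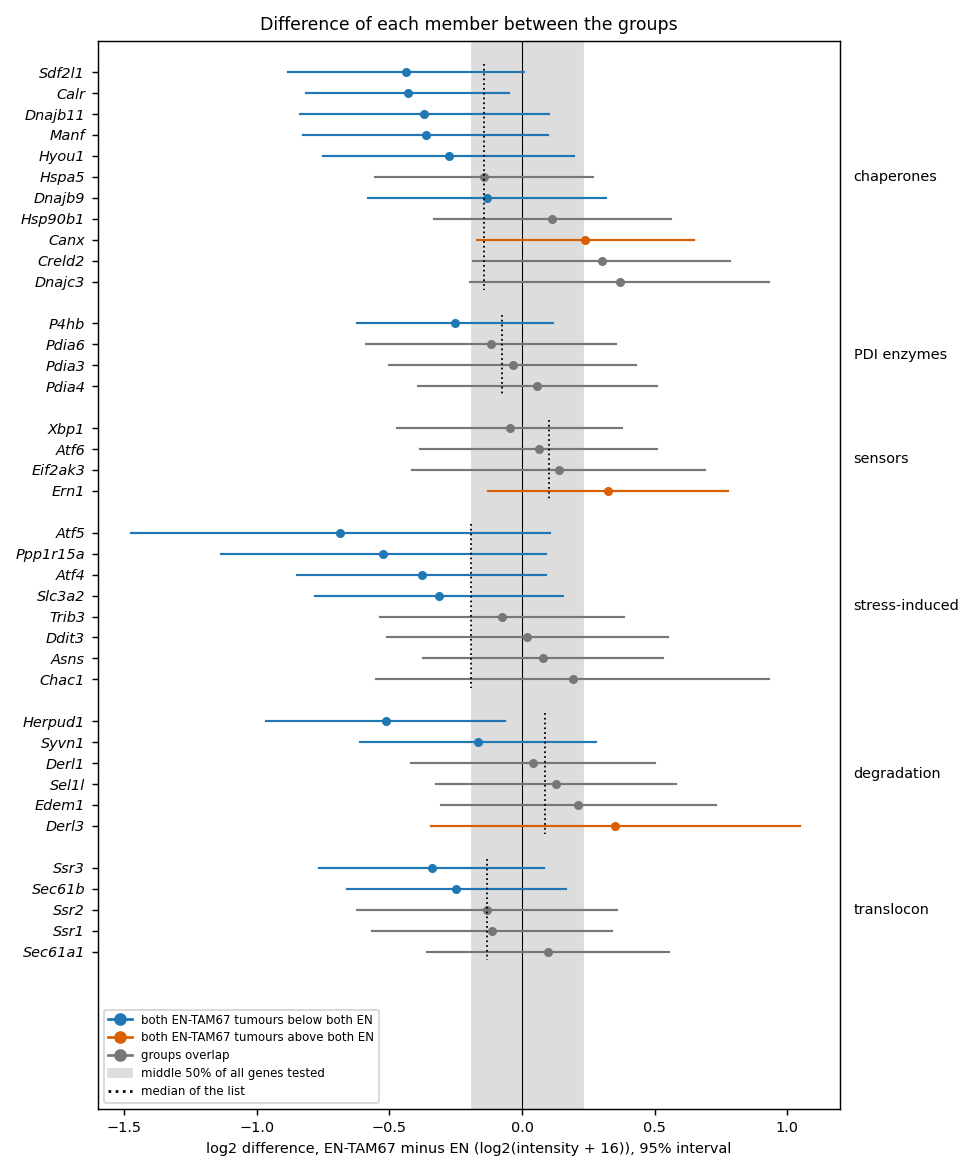
Difference of each member, EN-TAM67 minus EN on the log2(intensity + 16) scale, with its 95% interval from limma. Blue marks members whose EN-TAM67 tumours both read below both EN tumours (15), orange those above (3) and grey those that overlap (20). The dotted lines are list medians, from -0.19 for stress-induced genes to 0.10 for the sensors, and the grey band holds the middle 50% of all genes tested, from -0.19 to 0.23.

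The sensors and the factors beside them stayed within 0.33 of 0. The 4 genes had a median of 0.10, and 0 passed. Ern1, which encodes the kinase and ribonuclease IRE1, read 111.9 and 104.6 units in EN-TAM67 tumours and 93.84 and 73.62 in EN tumours. Both EN-TAM67 tumours were the higher ones (0.32 ± 0.21, adjusted p = 0.67), while its other 2 probe sets were at -0.03 and 0.08. Eif2ak3, the PERK gene, read 107.6 and 58.25 units in EN-TAM67 tumours and 58.78 and 85.37 in EN tumours, and its sign turned when either tumour 1 was left out (-0.23 for the EN-TAM67 and -0.08 for the EN tumour). Atf6, the gene of the sensor that is cut in the Golgi to release a transcription factor, read 188.1 and 208.3 units in EN-TAM67 tumours and 189.4 and 188.4 in EN tumours. All 3 Atf6 probe sets lay between 0.06 and 0.12. Xbp1, whose mRNA is spliced by IRE1, read 729.2 and 687.3 units in EN-TAM67 tumours and 716.3 and 747.6 in EN tumours (-0.05, interval -0.47 to 0.38). Its splicing was not measured here, and the 4 Xbp1 probe sets ran from -0.22 to 0.06.

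The 8 stress-induced genes of the ATF4 and CHOP branch had a median of -0.19, with 5 negative, 3 positive and 0 past the threshold. This median rested on single EN-TAM67 tumours, since it was -0.005 when tumour 1 of that group was left out and -0.37 when tumour 2 was. A stricter filter, at 60%, kept 5 of the 8, with a median of -0.08. Atf5, a transcription factor translated under stress, read 33.69 and 15.72 units in EN-TAM67 tumours and 35.67 and 62.93 in EN tumours. These are dim values around the array medians, and the difference of -0.69 ± 0.37 (SE, adjusted p = 0.578) had an interval of -1.48 to 0.10. Ppp1r15a encodes GADD34, the phosphatase subunit that ends translational arrest. It read 34.96 and 36.35 units in EN-TAM67 tumours and 46.03 and 72.76 in EN tumours (-0.52 ± 0.29, adjusted p = 0.584). For Atf4, the factor that gives the branch its name, intensities were 335.8 and 374.7 in EN-TAM67 tumours and 400.5 and 542.0 in EN tumours. The Atf4 difference was -0.38 ± 0.22 (SE, adjusted p = 0.617), and all 3 of its probe sets were negative, from -0.38 to -0.15. Slc3a2, the heavy chain of amino acid transporters, had 312.8 and 425.9 units in EN-TAM67 tumours and 441.5 and 473.9 in EN tumours, again with both EN-TAM67 tumours lower.

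In 4 genes downstream of ATF4 the groups overlapped. Ddit3, the CHOP gene, read 60.59 and 116.0 units in EN-TAM67 tumours, on either side of the EN tumours at 86.69 and 79.85 (0.02, interval -0.51 to 0.55). Trib3, a pseudokinase gene activated by ATF4 and CHOP, was at -0.08, Asns, asparagine synthetase, at 0.08 and Chac1, which encodes a glutathione-degrading enzyme, at 0.19. Chac1 read 28.14 and 52.21 units in EN-TAM67 tumours and 33.78 and 30.39 in EN tumours, and its value was -0.12 without EN-TAM67 tumour 2. ATF4 acts on the amino acid response element, searched as TGATGNAA on both strands. It stood in the windows of 4 of the 32 members with a window (12.5%), against 4.51% of all genes and 3.0% of tested genes. These were 3 of the 8 stress-induced genes and Herpud1, a degradation gene. The 4 matches are printed with their fixed bases in capitals, as the sites of this element in the list.
Trib3, chr2:152344039-152344046, opposite strand: cccggcTGATGtAAacctga
Chac1, chr2:119351049-119351056, opposite strand: caggagTGATGcAAcggcag
Asns, chr6:7693225-7693232, gene strand: gccacaTGATGaAActtccc
Herpud1, chr8:94386317-94386324, opposite strand: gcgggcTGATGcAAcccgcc

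Folding genes and the stress-induced genes of the ATF4 and CHOP branch were set side by side. The names are not exclusive, since folding genes such as Manf and Creld2 are stress-induced too. The 15 folding genes (chaperones and disulfide isomerases) had a median difference of -0.13 and the 8 stress-induced genes one of -0.19, which lie 0.06 apart. The groups did not overlap in 7 folding genes that were lower and 1 that was higher, and in 4 stress-induced genes that were lower and 0 that were higher, where 20.0% of all genes tested were lower and 20.2% higher. The folding median moved to -0.05 when EN tumour 2 was left out, and to -0.215 and -0.214 when EN-TAM67 tumour 1 and EN tumour 1 were. Centring arrays on their medians moved it to -0.23, and the median of all genes to -0.08. Tumours of 1 group also stood apart, a difference between the lists that was not tested. EN tumour 2 read above EN tumour 1 in 13 of 15 folding genes (median gap 0.16), against 57.1% of all genes tested, and in 5 of 8 stress-induced genes. EN-TAM67 tumour 2 read above EN-TAM67 tumour 1 in 7 of 8 stress-induced genes (median gap 0.24), against 49.1% of all genes, and in 6 of 15 folding genes. Relative to each gene's mean over the 4 tumours, stress-induced genes stood at a median of -0.24 in EN-TAM67 tumour 1, 0.06 in EN-TAM67 tumour 2, 0.02 in EN tumour 1 and 0.14 in EN tumour 2. Folding genes stood at -0.08, -0.13, 0.00 and 0.14 in the same order. EN tumour 2 was also the tumour with the highest sum of fibroblast markers (26100), and EN-TAM67 tumour 2 the one with the highest sum of adipocyte markers (6097). Mammary epithelial markers were highest in EN tumour 2 (3972) and macrophage markers in EN tumour 1 (17910). The part of these cell types in the gaps was not tested.

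**Figure D3:**
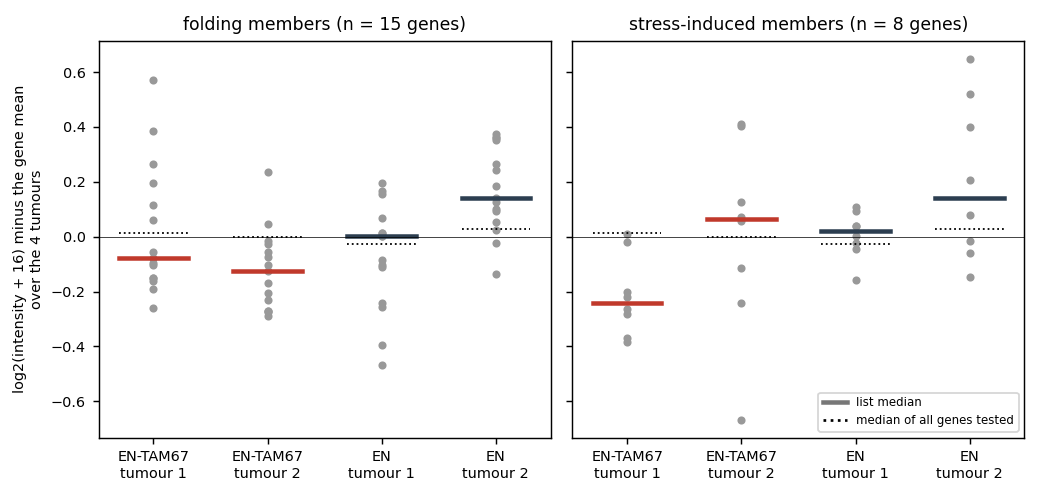
Log2(intensity + 16) of each folding gene (left) and stress-induced gene (right) in each tumour, minus the mean of that gene over the 4 tumours. Points are genes, thick lines list medians and dotted lines the median of all genes tested. The stress-induced median was lowest in EN-TAM67 tumour 1, at -0.24, and the folding median lowest in EN-TAM67 tumour 2, at -0.13, while both were highest in EN tumour 2, at 0.14.

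Genes of degradation from the endoplasmic reticulum went both ways. Of 6 members 0 passed, 2 were negative and 4 positive, with a median of 0.09. Herpud1 encodes a membrane protein that is strongly induced under stress and helps assemble the ubiquitin ligase complex. It read 221.8 and 253.2 units in EN-TAM67 tumours and 357.5 and 333.6 in EN tumours, a separation wider than the gap within either group. The difference was -0.51 ± 0.21 (SE, adjusted p = 0.44), with an interval of -0.97 to -0.06. Its second probe set was at -0.32, and the value ran from -0.60 to -0.43 when any 1 tumour was left out. Syvn1, the gene of the ubiquitin ligase HRD1, was at -0.17 with groups that did not overlap, and Sel1l, its partner, at 0.13 with probe sets from -0.44 to 0.52.

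Derl3, a derlin of the retrotranslocation channel that is high in secretory cells, read 55.14 and 35.48 units in EN-TAM67 tumours and 29.5 and 33.46 in EN tumours. EN-TAM67 tumour 1 stood above the other 3, and the interval of the difference of 0.35 ran from -0.34 to 1.05. Markers of B cells and plasma cells, another source of Derl3, were mostly dim, with 6 of the 10 on the array below the filter. The 10 summed to 833.4 and 859.8 units in EN-TAM67 tumours and 981.0 and 898.9 in EN tumours, a sum whose lower value in EN-TAM67 tumours came from Sdc1 (-0.54), a gene that epithelial cells also express. Of the 10, 8 had a positive difference, the same sign as Derl3, and the list median was 0.26. Most of these 8 were below the filter. Ighm, the brightest of the 8, was at 0.14, but only 3 of its 7 probe sets were positive and the lowest was at -0.815. Their part in the Derl3 value was not tested. Edem1, which takes part in sorting glycoproteins for degradation, read 128.0 and 87.87 units in EN-TAM67 tumours and 113.7 and 69.92 in EN tumours, with tumour 1 the higher in both groups. Derl1, the brightest probe set of this role group, read 374.5 and 384.4 units in EN-TAM67 tumours, between the EN tumours at 324.4 and 417.8. Its difference was 0.04, and its 4 probe sets spread from -0.15 to 0.07.

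Among the 5 translocon genes 4 were negative and 0 passed, and their median was -0.13. Ssr3, a subunit of the TRAP complex beside the channel, read 797.2 and 695.6 units in EN-TAM67 tumours and 919.8 and 976.4 in EN tumours (-0.34 ± 0.20, adjusted p = 0.618). Sec61b, the beta subunit of the channel, read 1106 and 1198 units in EN-TAM67 tumours and 1236 and 1521 in EN tumours (-0.25 ± 0.20, adjusted p = 0.723). In both genes the EN-TAM67 tumours were the lower ones. Ssr2 read 362.4 and 520.5 units in EN-TAM67 tumours and 423.1 and 539.6 in EN tumours, with tumour 2 the higher in both groups. Sec61a1, the pore subunit, was at 0.10, but 4 of its 6 probe sets were negative, down to -0.13, and Ssr1 was at -0.11 with a probe set at 0.12.

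Since TAM67 acts on AP-1, the windows were also searched for the AP-1 site TGACTCA on both strands. It stood in those of 3 members (9.38%) and of 5.95% of all genes with a window. The 3 matches are printed with the site in capitals.
Hspa5, chr2:34771908-34771914, opposite strand: ccgggcTGACTCAttggct
Ddit3, chr10:127290551-127290557, gene strand: cgcgcaTGACTCActcacc
Sec61b, chr4:47474447-47474453, gene strand: aatgccTGACTCAatttct
These genes differed by -0.14, 0.02 and -0.25, in that order, and 0 of them passed.

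Probe sets of the same gene gave a further reading. Of the 38 members, 22 had several probe sets above the filter. In 10 of these all probe sets had 1 sign, Calr, Atf4, Herpud1, Ssr3 and Syvn1 with lower values in EN-TAM67 tumours among them, and in 12 both signs occurred. Tested separately, 5 of the 82 probe sets had an unadjusted p under 0.05, the 3 of Calr, 1 of Herpud1 and 1 of Dnajc3, and 0 had an adjusted p under 0.05 (lowest 0.438). Of all 22555 probe sets in that fit, 9.54% had an unadjusted p under 0.05.

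Other genes of the pathway, 108 on the array in 5 lists, were read in the same fit. Of the 101 left after the filter, 0 passed, 11 had an unadjusted p under 0.05, against 9.8% of all genes tested, and the median was -0.05. The largest value in the 26 other folding genes was that of Serpinh1, the collagen chaperone HSP47, which read 388.4 and 411.6 units in EN-TAM67 tumours and 792.6 and 696.0 in EN tumours (-0.87 ± 0.21, adjusted p = 0.0859). In the same tumours Col1a2 was at -0.78 and the 9 fibroblast markers had a median of -0.71, whose part was not tested. Pdia5 followed at -0.51 ± 0.41 (SE, adjusted p = 0.735), with groups that overlapped. It was dim, at 36.12 and 12.07 units in EN-TAM67 tumours and 34.12 and 43.21 in EN tumours. The list median was -0.10. In the 20 other degradation genes, 15 were negative, against 47.8% of all genes tested. Edem2, a mannosidase-like protein, was at -0.48 and Man1b1, a mannosidase, at -0.37.

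The 19 other genes of translocation and N-glycosylation had a median of -0.02. The largest values there were positive, with Sec11c, a signal peptidase subunit, at 0.63 ± 0.25 (SE, adjusted p = 0.423) and Sec62, an auxiliary of the channel, at 0.55 ± 0.24 (SE, adjusted p = 0.456). Among 20 other ATF4 targets and amino acid response genes 13 were positive (median 0.12). Nupr1, a stress-induced chromatin protein, was at -0.59 and Psat1, an enzyme of serine synthesis, at 0.58, both with groups that did not overlap. Of 16 other stress regulators 12 were negative, with a median of -0.09. Tmbim6, also called BAX inhibitor 1, a membrane protein that restrains IRE1, read 514.2 and 747.8 units in EN-TAM67 tumours and 1044 and 1056 in EN tumours (-0.74 ± 0.22, adjusted p = 0.21), and Traf2, which links IRE1 to JNK, was at -0.47.

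**Figure D4:**
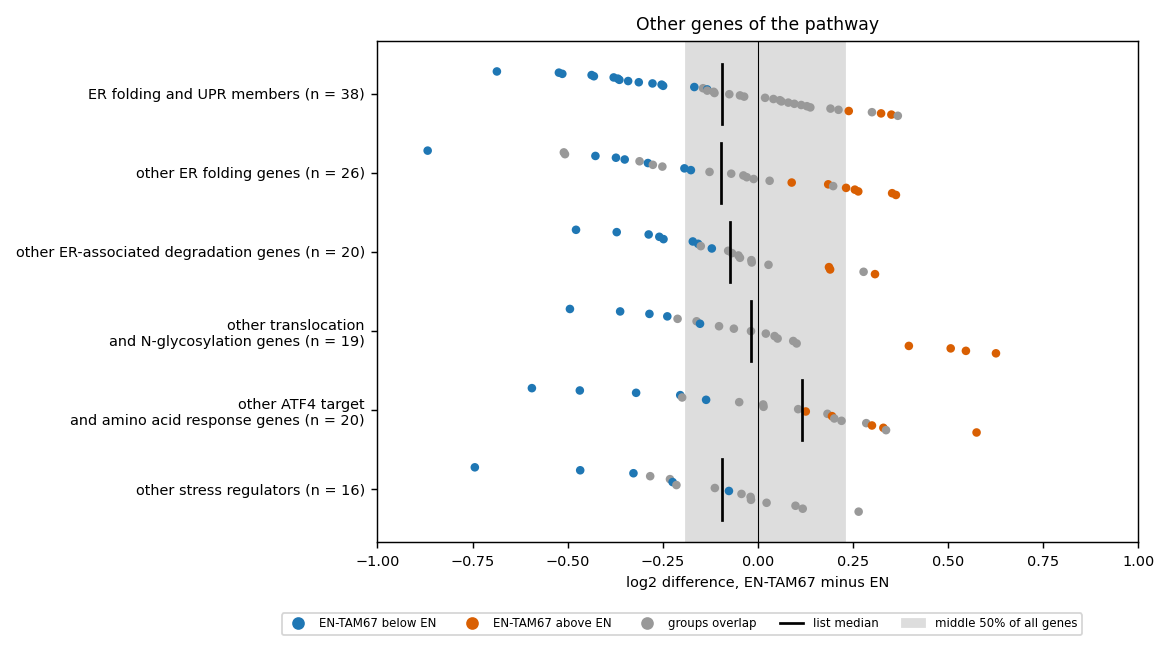
Difference of each tested gene, EN-TAM67 minus EN on the log2(intensity + 16) scale, for the 38 members and 5 lists of other genes of the pathway. Points are genes, coloured by whether the groups overlap, black lines are list medians and the grey band holds the middle 50% of all genes tested. List medians lie between -0.10 and 0.12, and Serpinh1 is the lowest point, at -0.87.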

How the data were processed

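Total RNA of 4 tumours was labelled as biotinylated cRNA and read on Affymetrix mouse expression arrays, per the labels. The authors deposited 1 linear intensity for each of 45101 probe sets and array. The sources used here do not give how probes were summarised, corrected for background or scaled. The platform's annotation named the probe sets (34945 with 1 symbol, 932 with several, 9160 with none, beside 64 controls), and 0 symbols were changed by a RefSeq table of GRCm38.p6.

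Values were taken as log2(intensity + 16), which understates changes of dim genes. Control probe sets and the dimmest 40% were left out, and the probe set with the highest mean on that scale stood for a gene. Groups were compared over 13331 genes with limma 3.58.1 in R 4.3.3 (two-sided, eBayes with trend, adjusted p under 0.05 by Benjamini-Hochberg), with no term for the tumour number. Intervals are limma's at 95%. The labels number the tumours but name no separate animals or cultures. The p-values therefore measure only how far these arrays spread, which may be technical, and with so few arrays precision is low. No batch was given. Members, lists and tests were chosen with earlier results of these data known. Genes with values in every tumour are the brightest and the 3 most different of each role list, plus others picked for the text. Of each list of other pathway genes, the 2 with the largest difference are named. Ero1b, Alg12 and the cell type markers named in the text stand outside this rule and were chosen after their values were seen. These markers are Car3, Fabp4, Adipoq, Retn, Col1a1, Col1a2, Dcn, Dpt, Krt5, Krt8, Krt14, Krt18, Krt19, Sdc1, Ighm and Myh1. The fit was also checked on data simulated with normal noise, with changes only in genes brighter than the median of those tested. There it recovered 87 of 100 changes of 2-fold and called 10 unchanged genes. Changes in dimmer genes were not simulated. Protein sequences were not used here. Motifs were searched with Python 3.11.15 in RefSeq promoter windows. Alternatives were the filter, scaling, pseudocount, probe set rule, variance model, replicate block, and each array left out.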

Additional observations from a re-analysis of the deposited data

How the results depend on the processing

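Of the 38 members 0 passed the threshold in any of 14 other fits, with every probe set tested separately, or at an adjusted p under 0.10, and the lowest adjusted p of a member in any of them was 0.32. The fits changed the filter (none, or the dimmest 60% left out), the scaling (quantiles, or each array centred on its median), the pseudocount (1 or 64), the probe set rule (a mean over probe sets) and the variance model (with no trend, or robust), or left out each tumour in turn, where a lone tumour is assumed to vary like the other group. Leaving out 60% kept 34 members, without Derl3, Chac1, Atf5 and Ppp1r15a. With the tumour number as a replicate block 0 members and 11 genes of the array passed, against 74 genes without it. Deviations of equally numbered tumours correlated at -0.0647 over genes. With 2 tumours in each group, this cannot show whether such tumours shared an animal or a batch, which the labels do not give.

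Median differences moved with scaling and with single tumours. Centring arrays on their medians gave -0.231 for folding genes and -0.193 for all members, while the median of all genes was then -0.08. Leaving out 1 tumour at a time gave folding medians of -0.215 to -0.052 and stress-induced medians of -0.368 to -0.005. Members with groups that do not overlap, recounted under settings chosen after seeing the data, were 17 lower and 0 higher with centred arrays (29.1% and 12.1% of all genes), 14 lower and 5 higher with averaged probe sets (19.3% and 21.9%), and 14 lower and 3 higher with quantile normalization (22.9% and 18.3%).

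Signs were the same in every one of the 14 fits that held the gene for 20 members and turned in at least 1 for 18, none of them called. Centring turned Pdia4 (-0.041), Atf6 (-0.036), Ddit3 (-0.079), Asns (-0.018), Derl1 (-0.057) and Sec61a1 (-0.002). Quantile normalization turned Ddit3 (-0.006), and averaging probe sets turned Hspa5 (0.046), Derl1 (-0.002) and Sec61a1 (-0.038). Other probe sets of a gene had the opposite sign in Hspa5 (0.215, 0.067), Hsp90b1 (-0.021), Hyou1 (0.096), Dnajc3 (-0.323, -0.024), Canx (-0.025), Pdia4 (-0.014), Ern1 (-0.026), Xbp1 (0.06), Sel1l (-0.439, -0.114), Derl1 (-0.146), Sec61a1 (-0.037, -0.118, -0.106, -0.132) and Ssr1 (0.121). With 1 tumour left out at a time, the members whose sign turned ran over -0.215 to 0.443 for Hsp90b1, -0.02 to 0.755 for Dnajc3, -0.249 to 0.177 for Pdia3, -0.029 to 0.144 for Pdia4, -0.431 to 0.198 for Pdia6, -0.006 to 0.13 for Atf6, -0.23 to 0.505 for Eif2ak3, -0.373 to 0.412 for Ddit3, -0.239 to 0.089 for Trib3, -0.123 to 0.505 for Chac1, -0.039 to 0.199 for Asns, -0.032 to 0.132 for Sel1l, -0.085 to 0.509 for Edem1, -0.134 to 0.216 for Derl1, -0.145 to 0.337 for Sec61a1, -0.335 to 0.108 for Ssr1 and -0.385 to 0.119 for Ssr2. Each of these fits chose the brightest probe set of a gene anew. Without EN tumour 1 the Sel1l value, -0.007, came from another probe set than in the main fit. The cause of the turns was not tested.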
